A study of Mus musculus with 7 samples.

Results

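Genes of the Slc16 family, the monocarboxylate transporters (MCTs), were examined in the livers of Trpm6-deficient mice and control littermates. The list held 9 genes (Slc16a1, Slc16a3, Slc16a5, Slc16a6, Slc16a7, Slc16a10, Slc16a11, Slc16a12 and Slc16a13), matched by the gene symbol of the platform annotation. Each was read by a single probe set, so that 9 of the 35556 probe sets on the array, and of the 19938 gene symbols they carry singly, belong to the list, and a rule to keep the brightest probe set of a gene had nothing to choose between. The list was drawn up with earlier results of these data known, among them the change of Slc16a7, so its composition carries no evidence of its own. Liver RNA of 4 control mice (Trpm6 fl/+, with 1 floxed allele and no Cre named) and 3 Trpm6-deficient mice (Trpm6 Δ17/Δ17;Sox2-Cre) was hybridised to whole-transcript microarrays, 1 array per mouse. All were males on a C57BL/6 background. Control 1, control 2 and Trpm6-deficient 2 were 12 weeks old, and the other 4 mice were 13 weeks old. Trpm6 encodes a channel kinase that carries Mg2+, and the mutant allele lacks exon 17. Sox2-Cre inherited from the father recombines in the epiblast and hence in all tissues of the embryo proper. The comparison therefore cannot separate a loss of Trpm6 in liver cells from its loss in other organs, nor the deletion from the presence of Cre.

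Slc16 proteins are membrane carriers, many of them in the plasma membrane. Some move lactate, pyruvate and ketone bodies together with a proton, in the direction that the gradients set, and others carry aromatic amino acids, thyroid hormones, creatine or drugs. In liver, such carriers admit lactate and pyruvate for gluconeogenesis and release ketone bodies during fasting, and several need a chaperone glycoprotein to reach the membrane.

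All values are log2 expression values, on which a difference of 1 is a doubling of the signal. A gene was called when its adjusted p from limma, with the adjustment made over all probe sets, was 0.1 or less, the threshold used in the study. Of the 9 Slc16 genes, 1 was called, Slc16a7, which rose, whereas of all probe sets 0.129% were called (0.0759% higher and 0.0534% lower). Before adjustment 4 of the 9 genes were higher and 0 lower at a p of 0.05 or less, here named nominal p, against 6.87% of all probe sets (3.85% higher and 3.03% lower). The groups did not overlap in 4 of the 9, all higher in the Trpm6-deficient livers, against 5.33% of all probe sets (2.94% higher and 2.38% lower). A difference of 1 log2 unit or more was seen for 2 of the 9, Slc16a5 and Slc16a7, and for 0.681% of all probe sets. The median log2 change of the 9 was 0.25, with a range of -0.24 to 2.51, whereas the median over all probe sets was 0.00 with quartiles of -0.08 and 0.08. Over the 13 Slc16 genes measured here the median was 0.04, since the 4 that the list leaves out lay close to 0.

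**Figure D1:**
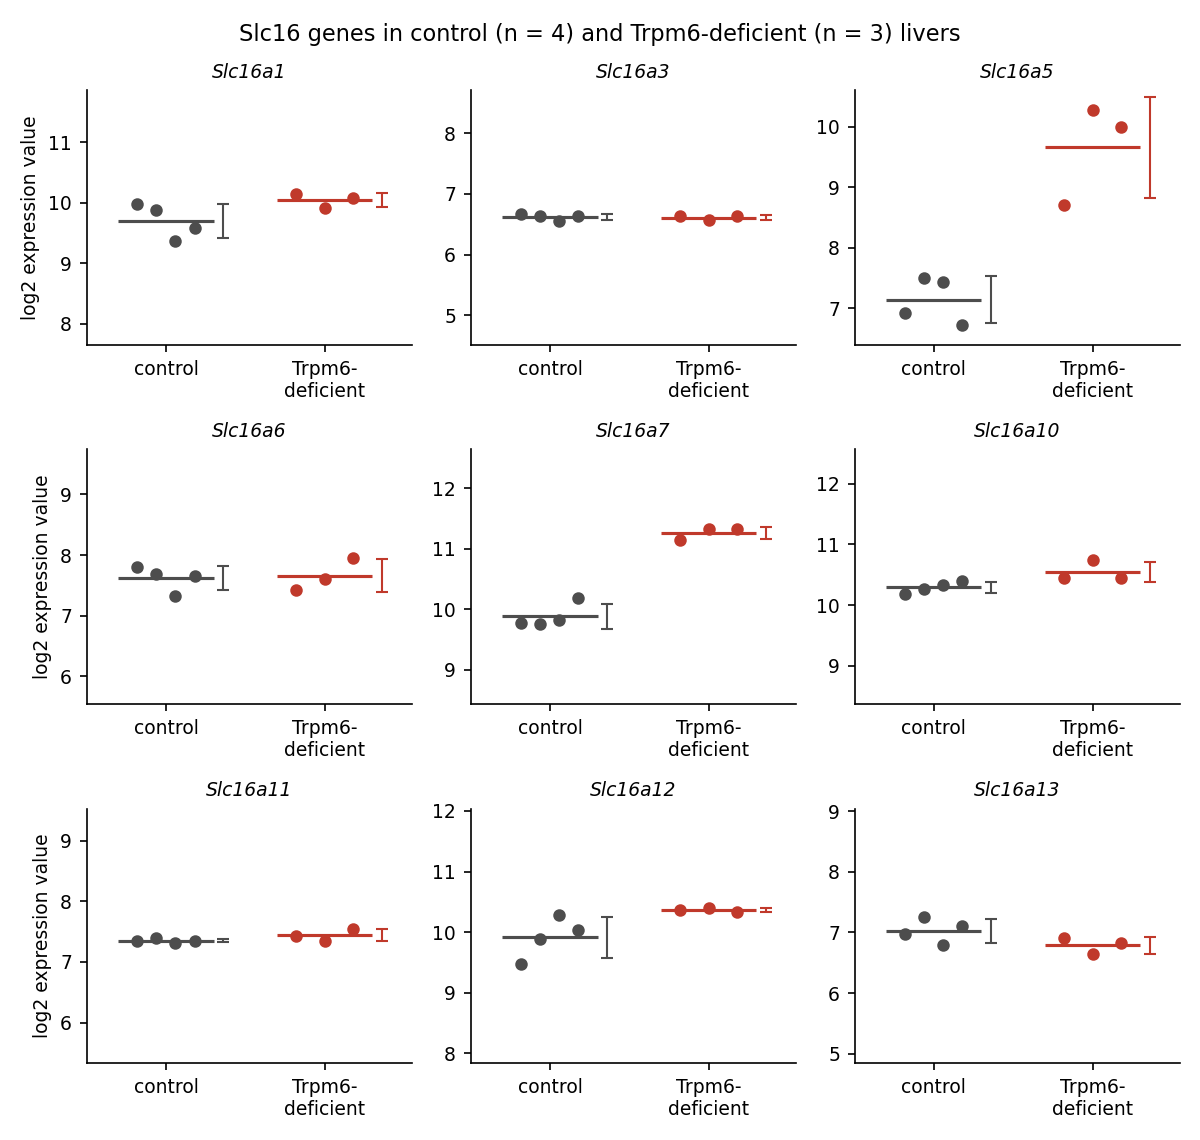
Log2 expression value (vertical axis, 4.2 log2 units in each panel) of the 9 Slc16 genes, by liver (grey points, 4 controls; red points, 3 Trpm6-deficient), with lines at the group means and bars beside them for the SD. Slc16a5 and Slc16a7 stand apart between the groups, and Slc16a5 spreads from 8.71 to 10.27 among the Trpm6-deficient livers.

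Slc16a7 encodes MCT2, a high-affinity carrier of pyruvate, lactate and ketone bodies. It lay at 9.77, 9.75, 9.83 and 10.18 in control 1, 2, 3 and 4. In Trpm6-deficient 1, 2 and 3 it lay at 11.15, 11.32 and 11.32. Every Trpm6-deficient liver was thus above every control, with a gap of 0.97 to control 4, the highest of the controls. The mean rose from 9.88 ± 0.20 (SD, n = 4) to 11.26 ± 0.10 (SD, n = 3), a log2 change of 1.38 (standard error, SE, 0.12, 95% interval 1.10 to 1.67, adjusted p = 0.0428 from limma). This is a 2.60-fold higher signal (95% interval 2.14 to 3.17), and Slc16a7 ranked 11th of all probe sets by p-value. The difference was 1.56 among the mice of 12 weeks (2 control and 1 Trpm6-deficient) and 1.23 among those of 13 weeks (2 of each).
The size of this change varied little when a liver was left out, from 1.34 to 1.48, but its call was lost in 5 of these 7 fits, each with 1 array fewer. It was kept without control 4 (adjusted p = 0.0162 from limma) and without Trpm6-deficient 1 (adjusted p = 0.0681). It was lost without control 1, 2 and 3 (adjusted p = 0.190, 0.191 and 0.235) and without Trpm6-deficient 2 and 3 (adjusted p = 0.185 and 0.188). With age as a covariate the log2 change was 1.36 and the adjusted p from limma 0.129.

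Slc16a5 encodes MCT6, a carrier of drugs such as bumetanide and nateglinide. It had the widest difference of the 9 genes. The controls lay at 6.93, 7.50, 7.44 and 6.72 and Trpm6-deficient 1, 2 and 3 at 8.71, 10.27 and 10.00. The groups did not overlap, with 1.21 between the highest control and Trpm6-deficient 1, and the Trpm6-deficient livers were spread over 1.56 log2 units. The group means were 7.15 ± 0.38 (SD, n = 4) and 9.66 ± 0.83 (SD, n = 3). The log2 change of 2.51 (SE 0.41, 95% interval 1.53 to 3.50), 5.71-fold in the signal (95% interval 2.89 to 11.3), did not pass limma's test over all probe sets (adjusted p = 0.202, unadjusted p = 0.000642). Without Trpm6-deficient 1, the lowest of its group, it was 2.99 and passed (adjusted p = 0.0586 from limma). Without any 1 of the other 6 livers it lay between 2.21 and 2.63 and did not pass. Within the ages the difference was 3.06 at 12 weeks and 2.28 at 13 weeks.

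Slc16a1, Slc16a3 and Slc16a6 encode the other carriers of lactate or ketone bodies in this list with the best known substrates, and none was called. Slc16a1 (MCT1), the most widespread lactate carrier, lay at 9.98, 9.88, 9.36 and 9.59 in the controls and at 10.14, 9.91 and 10.08 in the Trpm6-deficient livers. The groups overlapped, with control 1 above Trpm6-deficient 2. Its log2 change was 0.34 (SE 0.16, 95% interval -0.04 to 0.72, adjusted p = 0.781 from limma). Without control 3, the lowest liver, it was 0.23. It differed by 0.64 among the mice of 13 weeks and by -0.02 among those of 12 weeks.
Slc16a3 (MCT4), the lactate exporter of glycolytic cells, lay between 6.55 and 6.66 on all 7 arrays, near the array medians of 6.43 to 6.48. The log2 change of -0.01 had a 95% interval of -0.12 to 0.10, the narrowest of the 9. Slc16a6 (MCT7), a carrier of ketone bodies, ranged from 7.33 to 7.80 in controls and from 7.42 to 7.95 in Trpm6-deficient livers. The difference was 0.04 with a 95% interval of -0.35 to 0.42. The highest and the lowest liver were Trpm6-deficient 3 and control 3.

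Slc16a10 and Slc16a12 carry substrates other than monocarboxylates. In both the groups did not overlap, although by 0.04 only, and neither was called. Slc16a10 (TAT1), a carrier of aromatic amino acids and thyroid hormones, lay at 10.19, 10.26, 10.33 and 10.40 in the controls and at 10.45, 10.74 and 10.44 in the Trpm6-deficient livers. Its log2 change was 0.25 (SE 0.09, 95% interval 0.02 to 0.47, adjusted p = 0.685 from limma). Trpm6-deficient 2 was the highest, and without it the log2 change was 0.15. The difference was 0.52 at 12 weeks, where that mouse is the only Trpm6-deficient one, and 0.08 at 13 weeks.
Slc16a12 (MCT12), a creatine carrier, lay at 9.48, 9.88, 10.29 and 10.03 in the controls and at 10.37, 10.40 and 10.33 in the Trpm6-deficient livers. The controls were spread over 0.81 log2 units and the Trpm6-deficient livers over 0.07. The log2 change was 0.45 (SE 0.18, 95% interval 0.01 to 0.88, adjusted p = 0.712 from limma), and without control 1, the lowest liver, it was 0.30. Within the ages the difference was 0.72 at 12 weeks and 0.19 at 13 weeks.

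Slc16a11 and Slc16a13 are neighbouring genes whose proteins carry pyruvate and lactate, and in humans the pair lies in a region linked to type 2 diabetes. Slc16a11 ranged from 7.32 to 7.39 in controls and from 7.35 to 7.54 in the mutants, with a difference of 0.09 (95% interval -0.05 to 0.23), which was 0.04 without Trpm6-deficient 3, the highest liver. Slc16a13 ranged from 6.79 to 7.25 in controls and from 6.64 to 6.91 in the mutants, with a difference of -0.24 (95% interval -0.53 to 0.06). The groups overlapped in both, and neither passed limma's test (adjusted p = 0.842 and 0.810). The estimates of the 2 neighbours had opposite signs, which these intervals do not separate from 0.

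**Figure D2:**
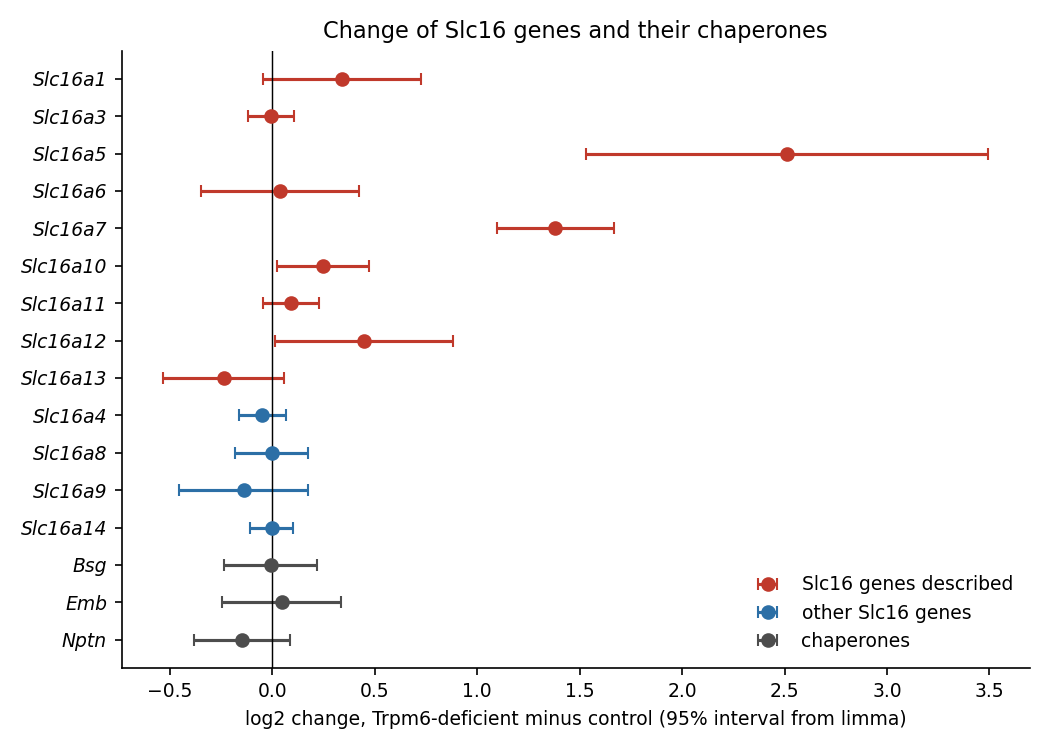
Log2 change from the 4 control to the 3 Trpm6-deficient livers (horizontal axis) of 13 Slc16 genes and 3 genes of chaperones, with the 95% interval from limma as bars. The interval of Slc16a7 runs from 1.10 to 1.67 and that of Slc16a5 from 1.53 to 3.50, whereas the other 14 estimates lie between -0.24 and 0.45.

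A further 4 Slc16 genes were measured. None of the 4 passed limma's test, with or without adjustment. Slc16a9, a carnitine carrier gene, had a log2 change of -0.14 (95% interval -0.46 to 0.18) in the brighter of its 2 probe sets and of -0.05 in the other. Slc16a8, the lactate carrier gene of the retinal pigment epithelium, had a log2 change of 0.00 (95% interval -0.18 to 0.18). Slc16a4 and Slc16a14, whose substrates are less well known, lay at 4.52 to 4.63 and at 5.56 to 5.63 over the 7 livers. The values of Slc16a4 are below the lower quartile of every array (5.05 to 5.11). Whether these probe sets were above background was not examined, and if they were not, they cannot show a difference.

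None of the 3 chaperone genes was called. Emb encodes embigin, the usual partner of MCT2, and lay between 3.95 and 4.15 in controls and between 3.87 and 4.32 in Trpm6-deficient livers, below the lower quartile of every array. Its log2 change was 0.05 (95% interval -0.24 to 0.34, adjusted p = 0.965 from limma). Bsg encodes basigin, the partner of MCT1 and MCT4, and had group means of 11.94 ± 0.12 (SD, n = 4) and 11.93 ± 0.13 (SD, n = 3). Nptn, which encodes the related neuroplastin, had a log2 change of -0.15 (95% interval -0.38 to 0.09).

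The profile of Slc16a7 over the 7 livers was set beside those of all probe sets with 1 gene symbol. Likeness was measured as the root mean square difference of the log2 values after the mean over the 7 livers was subtracted from each. The 5 nearest were Cyp39a1, an oxysterol hydroxylase gene (0.10), Rdh16f2, a retinol dehydrogenase gene (0.12), Dhrs7, a dehydrogenase and reductase gene (0.21), Tmem53, a membrane protein gene (0.22), and Gstp3, a glutathione S-transferase gene (0.25). All 5 had their 4 lowest values in the controls, as Slc16a7 did, and control 4 was the highest control in each of the 6 genes. Cyp39a1 lay at 10.13, 9.85, 10.06 and 10.60 in the controls and at 11.50, 11.67 and 11.68 in the Trpm6-deficient livers. The group means differed by 1.02 to 1.54 over the 5. These genes were picked by values of the same 7 arrays, so their likeness is a description.

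**Figure D3:**
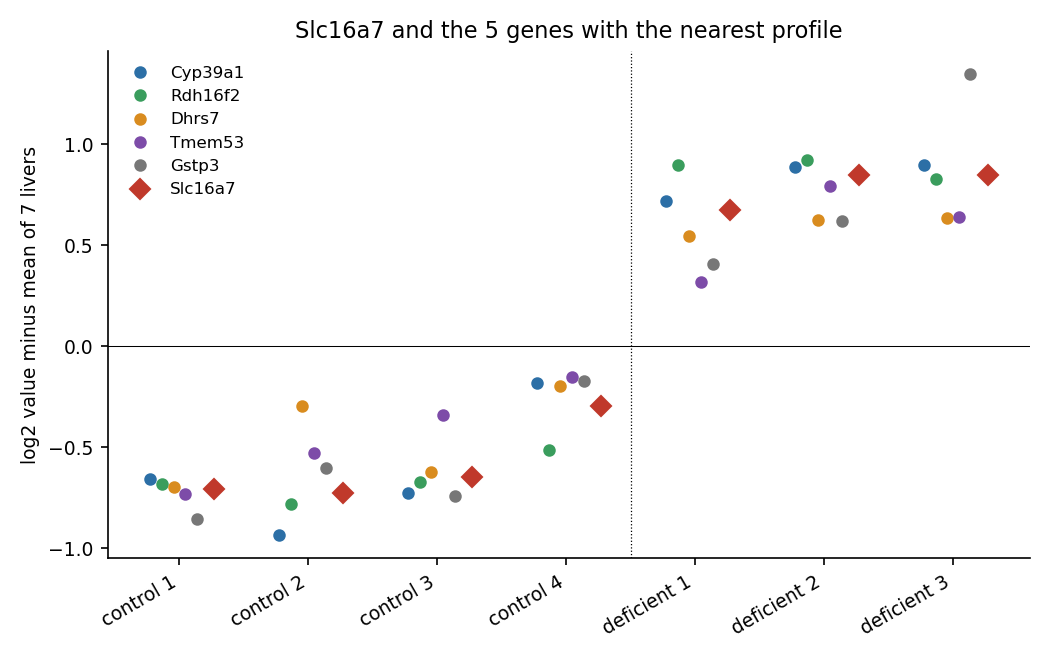
Log2 value minus the mean over the 7 livers (vertical axis) for Slc16a7 (red diamonds) and the 5 genes with the nearest profile (circles), by liver, with the groups parted by the dotted line. In all 6 genes control 4 is the highest control and lies below each Trpm6-deficient liver, and Gstp3 departs most from Slc16a7 in Trpm6-deficient 3.

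The transport and use of Slc16 substrates was followed in 68 measured genes of 8 lists, the remaining Slc16 genes, chaperones and regulators included. After adjustment with limma 0 of the 68 were called, and 15 had a nominal p of 0.05 or less. Of all probe sets, 0.129% were called and 6.87% had such a nominal p (3.85% higher and 3.03% lower). The lists were chosen with earlier results of these data known, so these counts are a description. Mpc1 encodes a subunit of the mitochondrial pyruvate carrier. Its log2 change was 0.25 (95% interval 0.02 to 0.48, adjusted p = 0.685 from limma), and it was the only one of 3 measured genes of carriers outside the family to pass by nominal p (median of the 3, -0.06).
Among 19 genes of lactate and pyruvate enzymes 6 were higher and none lower by nominal p, with a median of 0.07. Pdk1 and Pdk4 encode kinases that switch off pyruvate dehydrogenase. Pdk1 differed by 0.56 log2 units (SE 0.13, adjusted p = 0.397 from limma). Pdk4 lay at 8.89, 8.56, 7.59 and 9.17 in controls and at 10.24, 10.10 and 9.89 in Trpm6-deficient livers, with control 3 the lowest and no overlap between the groups. Its log2 change was 1.52 (SE 0.37, adjusted p = 0.429 from limma). The rest that were higher by nominal p included Gpt (0.28) and Pdp1, a pyruvate dehydrogenase phosphatase gene (0.26). Pdha1 and Dlat, genes of pyruvate dehydrogenase subunits, were also among them (0.21 each). The kinase gene Pdk2 had a log2 change of 0.07. The subunit genes Pdhb and Pdhx had log2 changes of -0.305 and -0.18, and the phosphatase gene Pdp2 one of -0.32. Ldha, the main lactate dehydrogenase gene of liver, had a log2 change of -0.01 (95% interval -0.16 to 0.13).
Of 10 genes of ketone body and short-chain acid enzymes, 2 were higher and none lower by nominal p, with a median of -0.06. Acss3, an acyl-CoA synthetase gene, differed by 1.00 log2 units (SE 0.35, adjusted p = 0.662 from limma). The groups overlapped, with Trpm6-deficient 3 at 8.61, below control 1 at 8.67. Bdh1 encodes the enzyme that forms 3-hydroxybutyrate, and it had a log2 change of 0.00 (95% interval -0.32 to 0.33).

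A further list held 16 measured genes linked to aromatic amino acids and thyroid hormones, receptors of these hormones included. Of the 16, 3 were higher and 1 lower by nominal p, with a median of 0.00. The higher ones were Slco1a4, Hal and Hpd, and the lower one was Slco1a1. The enzyme genes Hal and Hpd had log2 changes of 0.35 and 0.21 (adjusted p = 0.429 and 0.533 from limma), with no overlap between the groups. Slco1a4 and Slco1a1 encode uptake carriers of organic anions, thyroid hormones among them. Slco1a4 differed by 1.72 log2 units (SE 0.24, adjusted p = 0.132 from limma). It lay between 9.09 and 9.75 in controls and at 11.39, 11.35 and 10.66 in Trpm6-deficient 1, 2 and 3. For this gene Trpm6-deficient 3 was the nearest to the controls. Slco1a1 lay between 12.19 and 12.61 in controls and at 11.36, 7.29 and 8.30 in Trpm6-deficient 1, 2 and 3. Trpm6-deficient 1 was the nearest to the controls for Slco1a1, as it was for Slc16a5 but not for Slco1a4. Without it the log2 change of Slco1a1 passed (-4.61, adjusted p = 0.0318 from limma). With all livers it was -3.42 (SE 0.91, adjusted p = 0.500). Dio1, the deiodinase gene that activates thyroid hormone in liver, had a log2 change of -1.66 with a 95% interval of -3.45 to 0.13, and its values in Trpm6-deficient 1, 2 and 3 were 10.43, 9.58 and 7.17.
Of 6 genes for the synthesis and transport of creatine, the substrate of Slc16a12, 1 was higher and none lower by nominal p, with a median of 0.07. This was Gamt, which encodes the last enzyme of creatine synthesis, with a log2 change of 0.19 (adjusted p = 0.685 from limma). The 7 genes of transcriptional regulators had a median of -0.05. By nominal p none was lower and 1 was higher, Ppargc1a, a coactivator of mitochondrial and fasting genes. The brighter of its 2 probe sets, the one read here, had a log2 change of 0.94 (SE 0.27, adjusted p = 0.562 from limma). Ppara, the fatty acid receptor that induces Slc16a1 in liver, had a log2 change of -0.42 (95% interval -0.85 to 0.01), and Hif1a, the hypoxia factor that induces Slc16a3, one of -0.06 (95% interval -0.31 to 0.19).

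**Figure D4:**
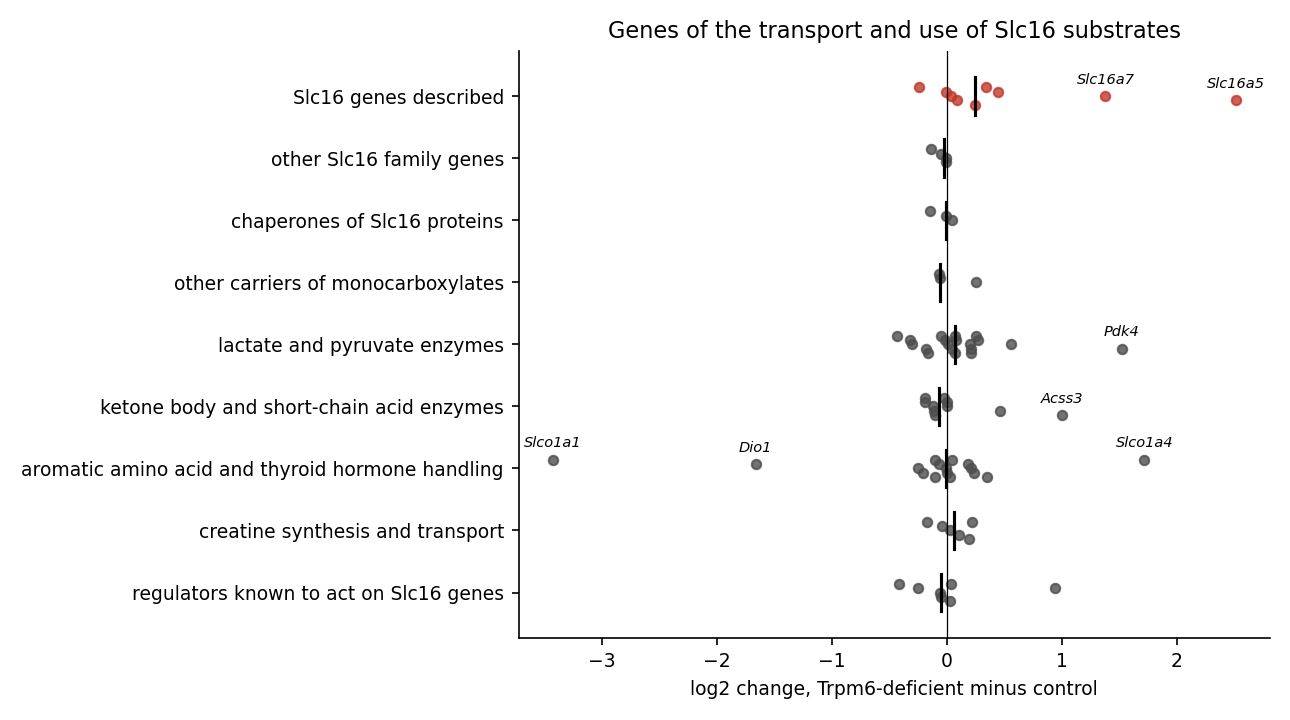
Log2 change from the 4 control to the 3 Trpm6-deficient livers (horizontal axis) of the 9 Slc16 genes (red) and of 8 lists of related genes (grey), with 1 point per gene and the median of each list as a black bar. Genes with a change of 1 log2 unit or more are named, and of the genes shown only Slc16a7 was called.

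Hepatocyte markers were bright on every array, with a mean over 7 measured genes of 13.66 to 13.82 in controls and 13.75 to 13.79 in Trpm6-deficient livers, and Alb, the albumin gene, had a mean of 14.38 in controls. Markers of macrophages, endothelium and lymphocytes were low in control 1. The mean over 10 macrophage markers was 8.52 there and 9.27 to 9.48 in the other controls, and 8.80 to 8.99 in the Trpm6-deficient livers, and 9 of the 10 had a log2 change below 0. The mean over 6 sinusoidal endothelial markers was 8.88 in control 1, 9.57 to 9.90 in the other controls and 9.10 to 9.50 in Trpm6-deficient livers. The median log2 change of the macrophage list was -0.31, with 0 of 10 markers called or past the nominal p. In bulk liver, fewer cells of a type and less RNA per cell cannot be told apart.
The mean over 3 erythroid markers was 7.71 to 7.93 in controls and 7.06 to 7.45 in Trpm6-deficient livers. This rested on Alas2, the heme synthesis gene of red cell precursors (log2 change -1.66, adjusted p = 0.192 from limma, and -1.97 with an adjusted p of 0.0499 without Trpm6-deficient 1), while Slc4a1 and Epb42 had changes of -0.01 and -0.09. For the cholangiocyte (5), stellate cell (6), lymphocyte (5) and neutrophil (6) markers measured, the range of the mean in controls was 6.40 to 6.46, 9.03 to 9.25, 5.40 to 5.99 and 5.16 to 5.33. Control 1 was the lowest control for the lymphocyte list (5.40, against 5.86 to 5.99 in the others) and the stellate cell list (9.03, against 9.13 to 9.25). In Trpm6-deficient livers the mean was 6.46 to 6.59, 9.16 to 9.30, 5.55 to 5.71 and 5.24 to 5.31. No marker of these 4 lists was called, and by nominal p 1 cholangiocyte and 2 stellate cell markers were higher. The part of cell composition in the values of the Slc16 genes was not tested.
Trpm6 itself lay at 5.50 to 5.53 in controls and at 5.37 to 5.50 in Trpm6-deficient livers, between the lower quartile and the median of the arrays. The exons that its probe set covers were not examined, and probes away from exon 17 cannot show the deletion.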

How the data were processed

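Liver RNA of 4 control and 3 Trpm6-deficient littermates was measured on GeneChip Mouse Gene 1.0 ST arrays. The authors ran RMA (correction of background, normalization and summary of probes) in Expression Console 1.4.0, a version taken from the submitters' processing notes, and deposited the log2 values. These make signals comparable between arrays, not between genes. Gene symbols came from the platform annotation (21789 probe sets with 1 symbol, 1621 with several, 12146 with none), and 21698 were found by gene ID in RefSeq without a change of symbol. Values were fitted without a filter or covariate in limma 3.58.1 (R 4.3.3) and adjusted by the Benjamini-Hochberg method over 35556 probe sets. The script was tested on simulated data. The Slc16 genes and all lists were chosen with earlier results of these data known. Named were every Slc16 gene and chaperone, the genes called or with the smallest p of each pathway list with 1 or 2 well-known ones, and the 5 profiles nearest to Slc16a7. Further genes of the lactate and pyruvate list and of the aromatic amino acid and thyroid hormone list were also named. Of the lists of cell markers only counts, means and single examples are given. The number of arrays limits the precision. Alternatives left out each liver, added age or the replicate number, changed the filter, normalization, variance prior and test.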

Additional observations from a re-analysis of the deposited data

Results flagged for a closer look

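Among the 13 Slc16 genes, the 3 chaperone genes and Trpm6, 17 in all, were 3 in which 1 control liver lay far from the other 3, with a gap above Dixon's 95% critical value. Chance gives this in about 5% of groups for continuous values, a rate that does not hold for Slc16a14 and Emb, where the other 3 controls were tied at 2 decimals and any gap passes. Slc16a14 was at 5.56 in control 4 and at 5.63 in the other controls. Bsg was at 11.75 in control 1 and at 11.98 to 12.02 in the others. Emb was at 4.15 in control 1 and at 3.95 in the others, below the lower quartile of the arrays.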

How the results depend on the processing

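Of the 9 Slc16 genes, 0 to 2 were called by limma when a liver was left out, and of all probe sets 7 to 69, against 46 with all livers (leaving out control 1 to 4 gave 9, 10, 7 and 9, and leaving out Trpm6-deficient 1 to 3 gave 69, 17 and 14). Of the 68 related genes 0 to 1 were called. The log2 change of Slc16a3 lay between -0.03 and 0.01 in these fits (0.0125 without Trpm6-deficient 2) and that of Slc16a6 between -0.11 and 0.16, so that both changed sign. With age as a covariate 0 Slc16 genes and 8 probe sets were called. A t-test of the group means was also run for each probe set alone, assuming equal variances and without limma's moderation. It called 0 Slc16 genes and 8 probe sets after Benjamini-Hochberg. Before adjustment 1863 probe sets passed it, against 2444 with limma. With probe sets of a mean under 5 removed, a filter that kept all 9 Slc16 genes, 70 probe sets and 1 related gene, Slco1a4, were called, and over those with 1 gene symbol 68 probe sets and the same gene. Another quantile normalization, median centring and a variance prior with trend changed no call among the Slc16 genes. The mean of several probe sets was not run, as each Slc16 gene has 1.
Same-numbered livers of both groups deviated together to an unequal degree (r = 0.335, 0.260 and 0.0878 across probe sets, which are not independent), and Trpm6-deficient 3 correlated best with control 4 (r = 0.226), so the numbers were not taken as pairs. With the replicate block, 0 Slc16 genes and 1 probe set were called, with 2 residual degrees of freedom, and Slc16a7 had a log2 change of 1.48 (adjusted p = 0.349). Whether a probe set was above background was not examined, which limits what dim probe sets can show.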
